A study of Mus musculus with 8 samples.

Results

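CD33, the Siglecs and related receptors that restrain myeloid cells were examined as a group of 10 genes out of the 18635 genes measured. The group was assembled as the family of *Cd33*, a gene already known from these data to be higher in PHGDH-deficient macrophages, and was therefore chosen by its normalized counts in the 2 genotypes compared here. The *Cd33* difference between genotypes is given as a description without a test. The other 9 genes were taken by family and role: the Siglecs *Siglec1*, *Siglece*, *Siglecf* and *Siglecg*, and the inhibitory receptors *Pirb*, *Sirpa*, *Cd300a*, *Cd300lf* and *Lair1*. All 10 genes had a row in the table. The cells were tumor-educated macrophages (TEMs), that is, bone marrow-derived macrophages (BMDMs) of mice kept for 24 h in conditioned medium of AE17, a mouse mesothelioma line (AE17-TCM). One group of 4 samples came from *Phgdh* fl/fl mice and the other group of 4 from *Phgdh* fl/fl *Cx3cr1*-Cre mice. Both groups carried the floxed allele of *Phgdh*, which encodes the first enzyme of serine synthesis from glucose, and both received AE17-TCM. Cre was expressed from the *Cx3cr1* locus, so the Cre group also carried 1 altered *Cx3cr1* allele that the control group did not, and an effect of that allele cannot be told apart from that of *Phgdh* deletion. Age and sex of the mice were not given in the labels, and BMDMs without AE17-TCM were not analysed here.

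Siglecs are lectins of the cell surface that bind sialic acid, the charged sugar at the ends of many glycans. Most of them, like PIR-B, SIRPα, CD300a, CD300LF and LAIR-1, carry immunoreceptor tyrosine-based inhibitory motifs (ITIMs) in their tails. Src family kinases phosphorylate these motifs, which then recruit the phosphatases SHP-1, SHP-2 or SHIP-1 and dampen signals from activating receptors. In macrophages this restrains phagocytosis, Fc receptor signalling and cytokine release. Many of the receptors have activating relatives that lack the motif and signal through the adaptors DAP12 or the Fc receptor γ chain instead.

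Values are normalized counts, that is, read counts per gene divided by 1 size factor per sample. A log2 fold change is the mean log2(normalized count + 1) of *Phgdh* fl/fl *Cx3cr1*-Cre TEMs minus that of *Phgdh* fl/fl TEMs, given with its standard error (SE), and its adjusted p came from limma with Benjamini-Hochberg adjustment over 13629 genes, those whose normalized count averaged at least 10 in the 8 samples. A gene passed the test at an adjusted p under 0.05. The libraries held 38219563 to 47027420 reads on genes, with 41998820 to 47027420 in the controls and 38219563 to 44149669 in the Cre group, and *Phgdh* was at 104.9 to 128.9 in the controls and at 14.23 to 35.33 in the Cre group. All 8 macrophage markers examined were present, with a summed normalized count of 1030176 to 1121134 in the controls and 1008585 to 1085172 in the Cre group, most of it from *Lyz2*. Of these markers 4 were lower in the Cre group and none was higher by limma at an adjusted p under 0.05, with changes of -24.4% for *Fcgr1*, -20.1% for *Cd14*, -12.3% for *Itgam* and -5.63% for *Adgre1*. Whether this shift has a part in the receptor values was not tested. Of all genes tested, 41.0% passed in either direction, 20.8% as higher and 20.3% as lower in the Cre group. The labels call the samples biological replicates without saying whether each came from a separate mouse, so the p-values measure the spread between these samples.

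*Cd33* encodes a myeloid Siglec whose mouse form differs from the human one in its inhibitory tail and can pair with DAP12. Its normalized counts were 2743, 2655, 2560 and 2480 in the 4 *Phgdh* fl/fl TEM samples and 5230, 5105, 5252 and 5331 in the 4 *Phgdh* fl/fl *Cx3cr1*-Cre samples. Every sample of the Cre group lay far above every control, and the spread within each group was small against the gap. The means were 2609 ± 114.1 (SD, n = 4) and 5229 ± 93.54 (SD, n = 4), a ratio of 2.004 and a log2 fold change of 1.00 (SE 0.03). In the order of log2 fold changes from high to low *Cd33* stood at place 90 of 13629 genes, and among the 6283 genes that averaged at least 1000 normalized counts it stood at place 1. Since *Cd33* was chosen for its rise in these data, its places and its SE are a description only. The minimum of 1000 was not planned beforehand. The plot of normalized counts for *Cd33*, *Pirb* and *Cd300a* shows these samples beside the receptors that passed the test.

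**Figure D1:**
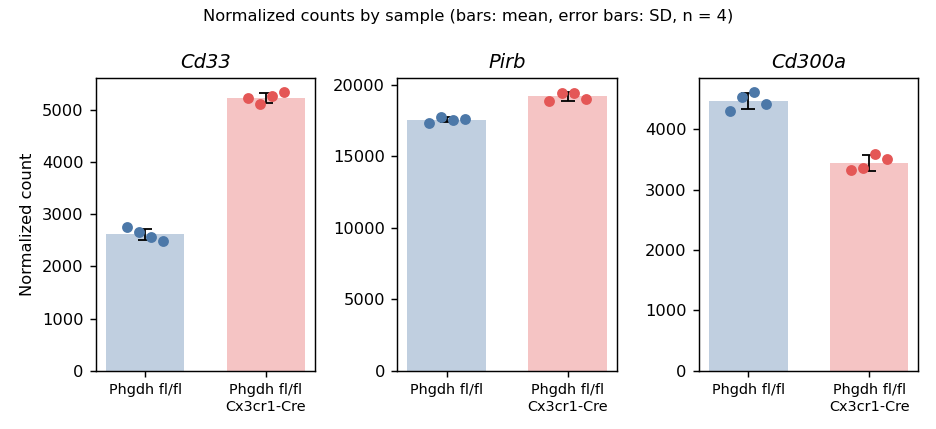
Normalized counts (vertical axes, from 0) of *Cd33*, *Pirb* and *Cd300a* in *Phgdh* fl/fl TEMs and *Phgdh* fl/fl *Cx3cr1*-Cre TEMs, with points for samples, bars for means and error bars for SD (n = 4). The Cre samples lie at 5105 to 5331 for *Cd33* against 2480 to 2743 in the controls, just above the controls for *Pirb* and below them for *Cd300a*.

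The gene lies on the minus strand at chr7:43524216-43544428 of mm10, in a cluster with *Siglecf*, *Siglecg* and *Siglece*. Promoter sequences, 250 bases before to 50 bases after a start site, came from RefSeq on GRCm38.p6, the build that mm10 names, and were found for 8 of the 10 genes, all but *Siglec1* and *Sirpa*. The promoters of *Cd33* (chr7:43533122-43533421, minus strand) and *Siglecf* (chr7:43351091-43351390, plus strand) are shown because these neighbouring genes share stretches of sequence. The RefSeq start site used for *Cd33* lies inside the gene span given above and not at its 5′ end. Capitals mark the 40 bases in runs of at least 12 that occur in both, and each sequence is written 5′ to 3′ on the strand of its gene.

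Cd33: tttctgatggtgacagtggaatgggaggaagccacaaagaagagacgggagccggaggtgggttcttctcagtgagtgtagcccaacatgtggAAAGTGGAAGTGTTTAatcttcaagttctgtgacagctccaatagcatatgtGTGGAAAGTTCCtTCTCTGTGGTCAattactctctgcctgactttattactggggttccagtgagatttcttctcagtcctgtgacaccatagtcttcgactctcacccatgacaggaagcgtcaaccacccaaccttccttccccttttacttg

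Siglecf: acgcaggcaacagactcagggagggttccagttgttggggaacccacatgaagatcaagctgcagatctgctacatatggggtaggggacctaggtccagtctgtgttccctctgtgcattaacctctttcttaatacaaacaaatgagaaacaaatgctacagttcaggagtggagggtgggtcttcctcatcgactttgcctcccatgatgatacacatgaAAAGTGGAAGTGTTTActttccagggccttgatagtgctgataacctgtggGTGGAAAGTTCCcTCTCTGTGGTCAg

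The longest shared run, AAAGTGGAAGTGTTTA, has 16 bases and begins 157 bases before the start site in *Cd33* and 27 bases before it in *Siglecf*. Between *Cd33* and each of the other 6 receptor genes with a promoter, the longest common run was 8 or 9 bases. *Siglecf* encodes a Siglec best known from eosinophils and alveolar macrophages. It was at 32.54, 37.74, 38.25 and 40.07 in the controls and 31.5, 34.3, 48.8 and 40.85 in the Cre group, resting on 28 to 48 reads per sample. The groups overlapped, and the log2 fold change was 0.05 (SE 0.19, 95% interval -0.34 to 0.44, limma adjusted p = 0.866). The interval was wide at this depth.

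Other genes around *Cd33* were examined by position. Of 15 genes in the table within 250 kb of *Cd33*, 8 were tested and 1 passed, against 41.0% of all genes tested, and the median log2 fold change of the 8 was 0.05 against 0.00 over all genes. The gene that passed was *Zfp658*, which encodes a zinc finger protein, at 130.7 to 161.8 in the controls and 178.8 to 196.5 in the Cre group, with a log2 fold change of 0.37 (SE 0.09, limma adjusted p = 0.00227). *Etfb*, which encodes a subunit of the mitochondrial electron transfer flavoprotein, had a log2 fold change of -0.19 (SE 0.09, limma adjusted p = 0.0882). Without Cre replicate 4, 2 of the 8 genes passed, 1 of them as lower. *Siglecg*, a Siglec known as a brake on B cells, was at 0, 3.682, 0 and 2.862 in the controls and at 6.751, 4.157, 1.017 and 3.89 in the Cre group. These values rest on 22 reads in all 8 samples, fell below the filter and were not tested, and a count of 0 in a library still allows up to 3 reads, for counting error only.

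**Figure D2:**
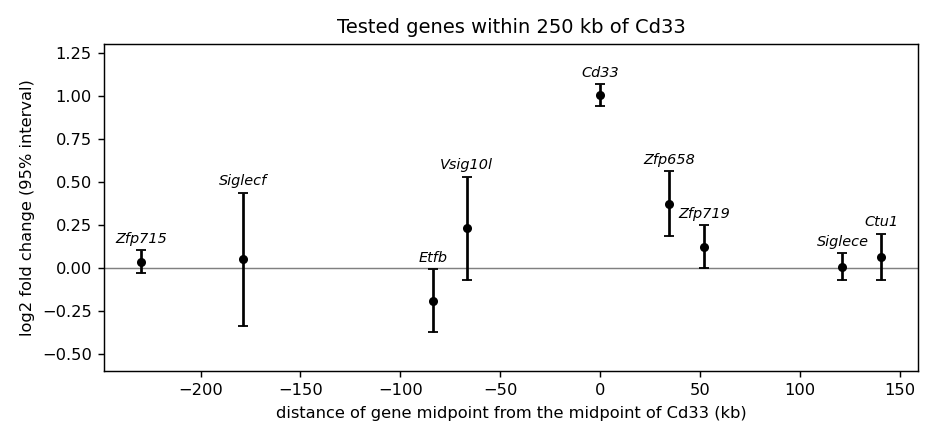
Log2 fold change with 95% interval (vertical axis) of the tested genes within 250 kb of *Cd33*, by the distance of each gene's midpoint from that of *Cd33* in kb (horizontal axis). *Cd33* stands at 1.00, *Zfp658* at 0.37 and the 7 other neighbours between -0.19 and 0.23. *Cd33* was chosen for its rise, so its interval is a description and not a test.

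*Siglece*, an ITIM-bearing Siglec of neutrophils and macrophages, lies 121.3 kb from *Cd33*, between midpoints. The samples were at 1537, 1576, 1551 and 1571 in the controls and 1534, 1474, 1659 and 1600 in the Cre group. The Cre samples spread to both sides of the controls. The log2 fold change was 0.01 (SE 0.04, 95% interval -0.07 to 0.08, limma adjusted p = 0.916).

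*Siglec1* encodes sialoadhesin, a long macrophage lectin that captures sialylated particles and has no ITIM. Normalized counts of 24529, 21390, 21164 and 20541 were found in the controls and 20998, 21278, 21072 and 20165 in the Cre group. Control replicate 1 stood above the other 7 samples, which lay between 20165 and 21390. The log2 fold change was -0.07 (SE 0.04, 95% interval -0.14 to 0.01, limma adjusted p = 0.169) and was -0.01 without control replicate 1. None of the 3 other Siglecs of the group that were tested passed.

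*Pirb* encodes PIR-B, a receptor for MHC class I molecules and angiopoietin-like proteins with several ITIMs. It lies at chr7:3711409-3720391 on the minus strand. Its normalized counts were 17343, 17736, 17516 and 17637 in the controls and 18864, 19415, 19447 and 19044 in the Cre group. All 4 Cre samples lay above all 4 controls, by a small margin relative to the level. The means were 17558 ± 169.4 (SD, n = 4) and 19193 ± 285.1 (SD, n = 4), and the log2 fold change was 0.13 (SE 0.02, limma adjusted p = 3.67e-05), that is, 9.3% higher.

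*Cd300a* encodes a receptor for phosphatidylserine and phosphatidylethanolamine on dying cells, and it moved the other way. It lies at chr11:114890041-114904654 on the plus strand. Its normalized counts were 4310, 4534, 4613 and 4414 in the controls and 3319, 3354, 3588 and 3509 in the Cre group. No Cre sample reached the lowest control. The means were 4468 ± 133.4 (SD, n = 4) and 3442 ± 127.2 (SD, n = 4), and the log2 fold change was -0.38 (SE 0.03, limma adjusted p = 2.66e-09). Only 1.37% of its 75-base stretches occur in transcripts of another gene, *Cd300c2*, whose log2 fold change was 0.01 (SE 0.02, limma adjusted p = 0.754).

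The promoters of *Pirb* (chr7:3720333-3720632, minus strand) and *Cd300a* (chr11:114889791-114890090, plus strand) are shown because these were the receptor genes that passed the test, in opposite directions. Capitals mark GAGGAAG or, on the other strand, CTTCCTC, the core letters bound by PU.1, the master transcription factor of myeloid cells.

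Pirb: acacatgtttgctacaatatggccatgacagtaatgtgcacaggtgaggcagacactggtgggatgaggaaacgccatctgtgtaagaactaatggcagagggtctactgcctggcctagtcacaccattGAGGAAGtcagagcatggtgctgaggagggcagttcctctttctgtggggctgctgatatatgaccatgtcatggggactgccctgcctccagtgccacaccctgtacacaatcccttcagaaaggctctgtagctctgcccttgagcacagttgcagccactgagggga

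Cd300a: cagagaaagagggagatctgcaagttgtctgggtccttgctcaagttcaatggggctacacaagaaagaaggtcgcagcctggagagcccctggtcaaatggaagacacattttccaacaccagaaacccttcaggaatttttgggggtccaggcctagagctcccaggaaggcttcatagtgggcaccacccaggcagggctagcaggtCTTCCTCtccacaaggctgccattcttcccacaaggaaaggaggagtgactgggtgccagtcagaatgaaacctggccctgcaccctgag

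The PU.1 letters stood in at least 1 promoter of each of the 8 receptor genes with an entry, *Cd33* included, against 13.6% of all 32851 promoters of the same length in the RefSeq table. The further entry of *Siglecg*, which begins at chr7:43408030, held none. In *Pirb* the match begins 120 bases before the start site and in *Cd300a* 40 bases before it. The interferon-stimulated response element, the letters TGANTCA of AP-1 sites and TTCNNNGAA of STAT sites were searched on both strands and matched in none of the 9 promoter entries of the receptor genes, where 3.44%, 7.81% and 8.3% of all promoters held them. At such shares, finding none in 9 entries says little about these genes. The motifs were chosen after the sequences had been seen, and the PU.1 letters were found in genes that were higher, lower and neither.

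*Cd300lf* encodes a second CD300 receptor for lipids of dying cells. Sample by sample it was at 1143, 1137, 1264 and 1308 in the controls and 1211, 1229, 1193 and 1257 in the Cre group. The Cre samples all fell inside the control range. The log2 fold change was 0.01 (SE 0.04, 95% interval -0.08 to 0.11, limma adjusted p = 0.838). *Rab37*, with a mean normalized count of 24.4, overlaps this gene on the opposite strand and was the one annotated gene found to overlap any of the 10.

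*Sirpa* encodes SIRPα, which binds CD47 on other cells as the brake on engulfment. Its normalized counts were 92478, 94789, 93842 and 93483 in the controls and 90473, 92691, 93433 and 90311 in the Cre group. The groups overlapped, with the lowest values in the Cre group. The log2 fold change was -0.03 (SE 0.02, 95% interval -0.08 to 0.02, limma adjusted p = 0.291). *Lair1* encodes LAIR-1, a receptor for collagens and for C1q. The gene was at 12094, 11729, 12071 and 11893 in the controls and 11702, 11671, 11775 and 12035 in the Cre group. The log2 fold change was -0.02 (SE 0.02, 95% interval -0.06 to 0.03, limma adjusted p = 0.529). For both genes the interval was narrow and included 0.

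Of the 9 receptor genes besides *Cd33*, 8 were tested, 1 was higher and 1 lower, against 41.0% of all genes that passed. The median log2 fold change of the 8 was -0.01, against 0.00 over all genes tested. In 2 of the 8 the groups did not overlap, against 36.7% of all genes tested. The 2 genes that passed moved in opposite directions.

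**Figure D3:**
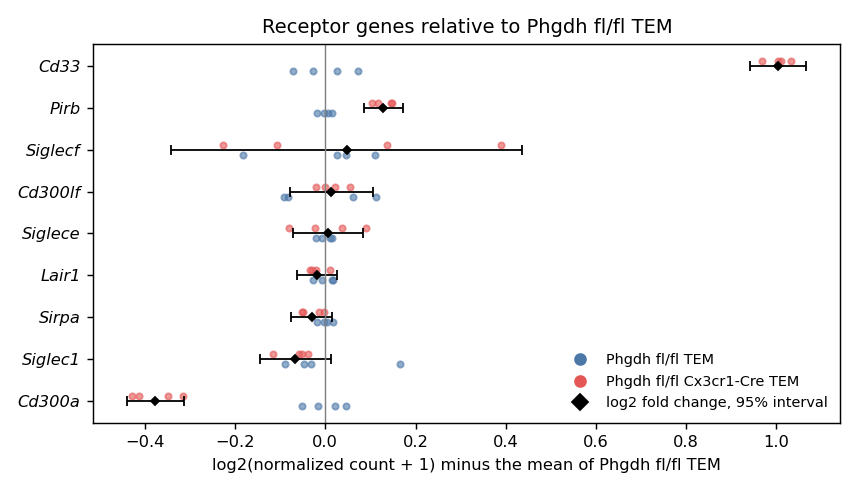
Log2(normalized count + 1) of each sample minus the mean of *Phgdh* fl/fl TEMs (horizontal axis, points) for the 9 receptor genes above the filter, with the log2 fold change and its 95% interval in black. *Cd33* stands apart at 1.00, *Pirb* at 0.13 and *Cd300a* at -0.38, and the intervals of the other 6 genes include 0. The interval of *Cd33*, which was chosen for its rise, is a description and not a test.

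Levels between genes were compared as FPKM, which scales the read count by the merged length of all annotated exons and by the total of the library. The order thus depends on the annotation, with 7771 bases for *Cd33*, 4738 for *Cd300a* and 1849 for *Siglece*. *Sirpa* was the most abundant of the 10 in the controls at 440.0 ± 4.42 FPKM (SD, n = 4), followed by *Pirb* at 90.6 ± 0.86 and *Siglec1* at 70.8 ± 5.86. *Lair1* followed at 36.9 ± 0.518, *Cd300a* at 21.8 ± 0.628 and *Siglece* at 19.5 ± 0.225 FPKM, and these 6 genes kept to separate ranges in the controls. *Cd33* held the place after them at 7.75 ± 0.35 FPKM, above *Cd300lf* at 5.44 ± 0.378, *Siglecf* at 0.307 ± 0.0264 and *Siglecg* at 0.00786 ± 0.00922. In the Cre group *Cd33* reached 15.7 ± 0.26 FPKM and stayed below *Cd300a* at 16.9 ± 0.639 and *Siglece* at 19.8 ± 1.01. *Cd300a* and *Siglece* exchanged places between the groups, and the order of the other 8 genes was the same in both. With bulk RNA, fewer cells that hold a transcript and less of it per cell cannot be told apart.

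**Figure D4:**
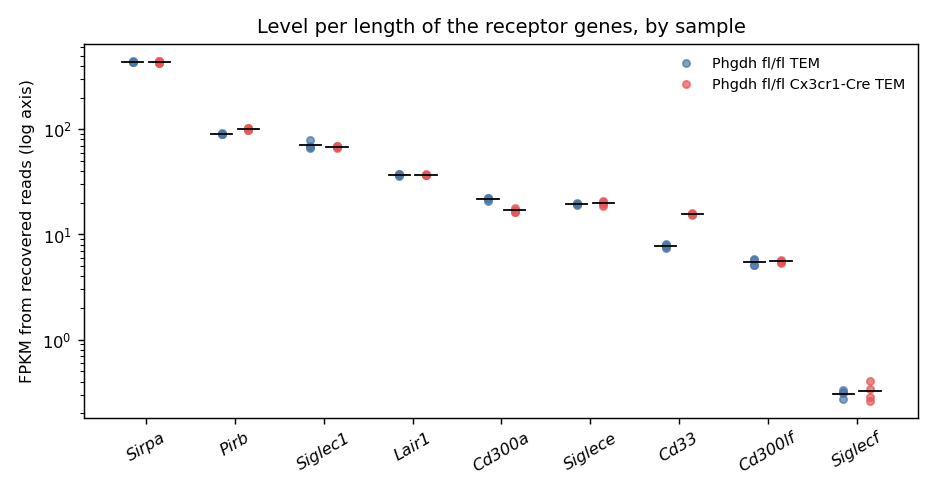
FPKM (log axis) of 9 receptor genes in each sample of *Phgdh* fl/fl TEMs and *Phgdh* fl/fl *Cx3cr1*-Cre TEMs, with bars at the means of 4 samples. *Cd33* moves from 7.75 to 15.7 FPKM, while *Sirpa* stays near 440 and *Siglecf* near 0.3. *Siglecg*, with 0 reads in some samples, is left out of the plot.

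For *Cd33*, the genes with the most similar pattern over the 8 samples were sought among those that averaged at least 100 normalized counts, by the root mean square difference of their centred log2 values. Among the 3 most similar were *Tent5c*, which encodes a poly(A) polymerase, at 0.0647 and *H2-Aa*, which encodes an MHC class II chain, at 0.0981. *Tent5c* was at 400.4 to 438.8 in the controls and 801.3 to 922.6 in the Cre group, and *H2-Aa* at 612.1 to 717.7 and 1245 to 1330. These genes were chosen for their likeness, so their values are a description.

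The activating relatives of the receptors and their adaptors were mostly higher in the Cre group where they passed the test. Of 25 genes on this list, 20 were found and 18 tested, with 9 higher and 2 lower, where 20.8% of all genes tested were higher and 20.3% lower, and the median log2 fold change was 0.12 against 0.00 over all genes tested. With eBayes without trend 7 passed, 6 higher and 1 lower. Groups did not overlap for 8 of the 18, against 36.7% of all genes tested. The *Pira* genes encode PIR-A, the activating partner of PIR-B, and all 4 that were measured rose. *Pira11* was at 145.8 to 163.6 in the controls and 226.6 to 286.9 in the Cre group, with a log2 fold change of 0.70 (SE 0.09, limma adjusted p = 1.57e-06). *Pira2* was at 329.8 to 380.1 and 508.2 to 611.7, with a log2 fold change of 0.61 (SE 0.07, limma adjusted p = 1.83e-07). The log2 fold changes of *Pira1* and *Pira6* were 0.52 (SE 0.09, limma adjusted p = 5.32e-05) and 0.45 (SE 0.13, limma adjusted p = 0.00823). Summed over the 4 genes, the normalized count was 776 ± 23.7 (SD, n = 4) in the controls and 1175 ± 79.6 in the Cre group. As a share of *Pirb* the sum was 4.42% ± 0.155 and 6.13% ± 0.482, with no overlap (exact two-sided permutation test, p = 0.0286, the smallest that 4 against 4 samples allow). These genes are near-copies of one another: 84.5% of the 75-base stretches of *Pira1*, 88.3% of *Pira2*, 59.3% of *Pira11*, 37.6% of *Pira6* and 26.0% of *Pirb* occur in transcripts of another gene, so how their reads were divided is uncertain.

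*Cd300ld*, an activating partner of the inhibitory CD300 receptors, was at 9664 to 10189 in the controls and 11205 to 11853 in the Cre group, with a log2 fold change of 0.21 (SE 0.02, limma adjusted p = 3.48e-07). *Cd300lb*, also of the CD300 relatives on this list, was lower, with a log2 fold change of -0.06 (SE 0.02, limma adjusted p = 0.0234). *Cd300ld2*, *Cd300ld3*, *Cd300c2* and *Cd300e* did not pass the test. The 3 *Sirpb1* genes, activating counterparts of *Sirpa*, summed to 4378 ± 133.5 (SD, n = 4) and 4765 ± 125.0, and *Sirpb1b* had a log2 fold change of 0.18 (SE 0.04, limma adjusted p = 0.00196). From 29.3% to 46.9% of the 75-base stretches of these genes are shared, mostly among themselves. *Tyrobp*, which encodes the adaptor DAP12, was lower, at 28306 to 29672 in the controls and 26361 to 27017 in the Cre group, with a log2 fold change of -0.13 (SE 0.02, limma adjusted p = 5.23e-05). *Fcer1g*, which encodes the Fc receptor γ chain, had a log2 fold change of -0.01 (SE 0.02, limma adjusted p = 0.764), which changed sign when reads were scaled to the total of each sample.

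**Figure D5:**
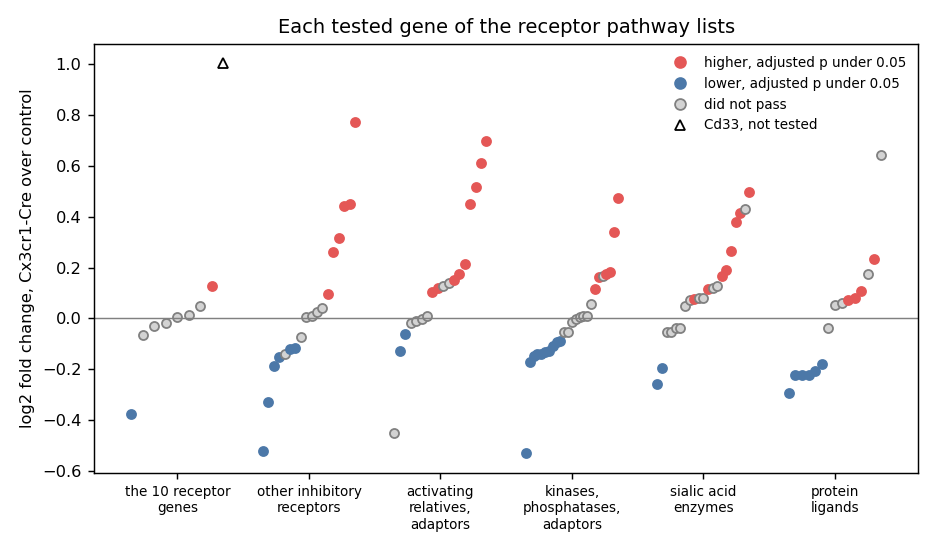
Log2 fold change (vertical axis) of each tested gene of the receptor group and of the 5 lists around it (horizontal axis), with red and blue points for genes that were higher or lower at a limma adjusted p under 0.05 and grey points for the rest. The activating relatives hold 9 red and 2 blue points, the signalling proteins 6 and 10, and *Cd33* is drawn as an open triangle.

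Of 27 genes listed as other inhibitory receptors or their close relatives, 21 were matched to 22 rows and 18 were tested, with 6 higher and 6 lower and a median log2 fold change of 0.01, where 41.0% of all genes tested passed. Groups did not overlap for 12 of the 18, against 36.7% of all genes tested. *Fcgr2b*, which encodes the inhibitory Fcγ receptor, was at 1484, 1492, 1613 and 1521 in the controls and 2628, 2537, 2579 and 2687 in the Cre group. All Cre samples lay well above the controls, and the log2 fold change was 0.77 (SE 0.03, limma adjusted p = 2.28e-13). *Lilrb4a*, which encodes the ITIM receptor gp49B, was at 28857 to 32461 and 40418 to 41351, with a log2 fold change of 0.44 (SE 0.03, limma adjusted p = 9.03e-11). Its neighbour and near-copy *Lilrb4b*, which encodes gp49A, has no ITIM and is one of the 6 counted as higher, had a log2 fold change of 0.26 (SE 0.02, limma adjusted p = 2.41e-08). Since 39.8% of the 75-base stretches of *Lilrb4a* recur in other transcripts, the division of reads between them is uncertain. *Cd200r1*, the receptor for CD200, which inhibits through a motif other than an ITIM, had a log2 fold change of 0.31 (SE 0.03, limma adjusted p = 1.4e-08).

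Among the 6 that were lower, *Mag*, a Siglec best known from myelin, was at 124.6 to 137.1 in the controls and 82.35 to 100.1 in the Cre group, with a log2 fold change of -0.52 (SE 0.11, limma adjusted p = 0.000463). *Cd72*, a lectin-like receptor of B cells and macrophages and among the most abundant of this list, was at 70293 to 73663 and 56972 to 58490, with a log2 fold change of -0.33 (SE 0.02, limma adjusted p = 1.87e-10). *Cd5*, a receptor of T cells and some B cells, was instead among those that were higher. It was at 50.2 to 60.1 in the controls and 61.0 to 95.31 in the Cre group, with a log2 fold change of 0.45 (SE 0.16, limma adjusted p = 0.0282). Its adjusted p was 0.108 without Cre replicate 1, 0.12 without Cre replicate 4, 0.0651 without control replicate 1 and 0.0524 without control replicate 2. *Cd22*, the Siglec of B cells, had a log2 fold change of 0.01 (SE 0.08, limma adjusted p = 0.94).

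The kinases, phosphatases and adaptors through which ITIMs act, listed together with those of the activating pathway that ITIMs oppose, split in direction. All 25 genes found of 26 listed were tested, with 6 higher and 10 lower, where 41.0% of all genes tested passed, and the median log2 fold change was -0.01. Groups did not overlap for 16 of the 25, against 36.7% of all genes tested. *Ptpn6*, which encodes SHP-1, the phosphatase most ITIMs recruit, was at 19376 to 20797 in the controls and 17505 to 17923 in the Cre group, with a log2 fold change of -0.17 (SE 0.02, limma adjusted p = 3.11e-06). *Ptpn11* (SHP-2) and *Inpp5d* (SHIP-1) had log2 fold changes of -0.06 (SE 0.03, limma adjusted p = 0.103) and 0.06 (SE 0.02, limma adjusted p = 0.054). The Src family kinase gene *Lyn* was lower, with a log2 fold change of -0.13 (SE 0.02, limma adjusted p = 0.000101).

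*Dok2*, an adaptor that damps Ras signalling, was at 2468 to 2667 in the controls and 1721 to 1836 in the Cre group, with a log2 fold change of -0.53 (SE 0.03, limma adjusted p = 7.45e-11). *Socs3*, an inhibitor of cytokine signalling, was at 970.6 to 1082 and 1323 to 1486, with a log2 fold change of 0.47 (SE 0.04, limma adjusted p = 2.14e-08). The ubiquitin ligase gene *Cbl* had a log2 fold change of 0.34 (SE 0.04, limma adjusted p = 2.92e-07). *Syk*, the kinase of the activating pathway, and *Ptprc*, which encodes the phosphatase CD45, had log2 fold changes of 0.18 (SE 0.02, limma adjusted p = 2.02e-06) and 0.18 (SE 0.02, limma adjusted p = 5.76e-07). *Fyb*, an adaptor gene and the most abundant of the list, had a log2 fold change of 0.00 (SE 0.02, limma adjusted p = 0.902).

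The enzymes that make and remove sialic acid, the ligand of Siglecs, were also examined. Of 33 genes listed, 25 were found and 21 tested, with 8 higher and 2 lower and a median log2 fold change of 0.08. Of all genes tested 20.8% were higher and 20.3% lower, whereas the genes of this list that passed were more often higher. In either direction 47.6% of the list passed, against 41.0% of all genes tested. Groups did not overlap for 8 of the 21 genes, against 36.7% of all. The share past the test in either direction and the share without overlap thus lay near those of all genes. The genes that passed as higher were sialyltransferases. *St3gal1*, which caps O-glycans, was at 4460 to 4878 in the controls and 6378 to 6743 in the Cre group, with a log2 fold change of 0.50 (SE 0.03, limma adjusted p = 1.41e-11). *St8sia4*, which builds polysialic acid, was at 4645 to 5290 and 6422 to 6702, with a log2 fold change of 0.42 (SE 0.03, limma adjusted p = 1.1e-09). *St6gal1*, which caps N-glycans, and *St6galnac4* had log2 fold changes of 0.26 (SE 0.04, limma adjusted p = 4.48e-06) and 0.19 (SE 0.04, limma adjusted p = 0.000383).

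Those that were lower were *St3gal5*, which sialylates a glycolipid to start the gangliosides, with a log2 fold change of -0.26 (SE 0.03, limma adjusted p = 4.46e-07), and *Cmas*, which activates sialic acid for transfer, with -0.19 (SE 0.03, limma adjusted p = 1.16e-05). *Neu1*, which encodes the lysosomal sialidase, was at 6051 to 6283 in the controls and 6229 to 6518 in the Cre group, with a log2 fold change of 0.05 (SE 0.02, limma adjusted p = 0.112).

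Genes of protein ligands of the receptors formed the last list. Of 24 genes, 21 were found and 15 tested, with 4 higher and 6 lower and a median log2 fold change of 0.05, where 20.8% of all genes tested were higher and 20.3% lower. Groups did not overlap for 11 of the 15, against 36.7% of all genes tested. The collagen genes found of the list, as ligands of LAIR-1, were below the filter and not tested, except *Col1a2*. *Col1a1* was at means of 5.295 and 8.776 and *Col3a1* at 3.422 and 2.557 normalized counts in the controls and the Cre group. *Col1a2* was at means of 9.672 and 16.66, with a log2 fold change of 0.64 (SE 0.42, limma adjusted p = 0.24). The 3 chains of C1q, a ligand of LAIR-1, were all lower. *C1qa* was at 28601 to 30729 in the controls and 23713 to 25365 in the Cre group, with a log2 fold change of -0.29 (SE 0.03, limma adjusted p = 1.99e-08), and *C1qb* and *C1qc* had log2 fold changes of -0.22 (SE 0.03, limma adjusted p = 4.45e-07) and -0.21 (SE 0.02, limma adjusted p = 1.51e-07). *Cd47*, the ligand of SIRPα, was at 13023 to 14368 and 11090 to 12431, with a log2 fold change of -0.22 (SE 0.03, limma adjusted p = 9.81e-06).

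*Spn*, which encodes CD43, a sialylated ligand of sialoadhesin, was at 2293 to 2531 in the controls and 2692 to 2929 in the Cre group, with a log2 fold change of 0.23 (SE 0.03, limma adjusted p = 1.17e-05). Of the angiopoietin-like ligands of PIR-B, *Angptl2* had a log2 fold change of 0.11 (SE 0.03, limma adjusted p = 0.00589). For the MHC class I ligands of PIR-B, *H2-K1* had a log2 fold change of 0.08 (SE 0.02, limma adjusted p = 0.00554). *H2-D1* had one of 0.07 (SE 0.02, limma adjusted p = 0.0174), which was 0.07 with an adjusted p of 0.058 without Cre replicate 2. *B2m*, their shared light chain, had a log2 fold change of 0.05 (SE 0.02, limma adjusted p = 0.1). It passed under quantile normalization, with a log2 fold change of 0.24, and under DESeq2 and total read scaling, with 0.05 and 0.07.

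Markers of other cells that carry these receptors were examined beside them. Of 6 eosinophil markers, 2 were measured and only *Ccr3* reached a mean of 10, with the list summing to 799.8 to 855.9 in the controls and 396.0 to 520.5 in the Cre group, while *Siglecf* stayed at 31.5 to 48.8. Of 6 B cell markers, 2 were measured and only *Cd79b* reached a mean of 10, with a sum of 197.1 to 252.8 in the controls and 130.5 to 166.7 in the Cre group. Of 8 neutrophil markers, *S100a8* alone was measured, at 466.7 to 574.7 and 575.7 to 631.3. The 4 measured of 6 conventional dendritic cell markers summed to 16.5 to 47.7 and 45.0 to 68.1. Of 6 alveolar macrophage markers, *Marco* and *Pparg* were measured and summed to 11531 to 12597 and 16086 to 16658, mostly from *Marco*, and they moved apart, with *Marco* higher (log2 fold change 0.47, SE 0.03, limma adjusted p = 7.95e-12) and *Pparg* lower (-0.21, SE 0.05, limma adjusted p = 0.00146). The other markers of these lists were not analysed here, and the part of such cells in the results was not tested. *Cx3cr1*, the locus that carries Cre, was at 999.6 to 1210 in the controls and 614.0 to 689.7 in the Cre group, with a log2 fold change of -0.70 (SE 0.05, limma adjusted p = 1.87e-09), and *Phgdh* had one of -2.15 (SE 0.21, limma adjusted p = 5.09e-08).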

How the data were processed

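RNA of 4 *Phgdh* fl/fl and 4 *Phgdh* fl/fl *Cx3cr1*-Cre TEM samples was sequenced from directional libraries (NEBNext Ultra Directional) as single-end reads. The authors mapped the reads to mm10 with TopHat2, counted them per gene with HTSeq 0.6 (versions per the labels) and compared the genotypes with DESeq2. What the authors deposited is a signal unit: for every gene, the count of each library over that library's size factor (normalized counts, not divided by gene length). The deposited table also holds a mean and the authors' own comparison (log2 fold change, standard error, score, p-value and adjusted p-value), which were not used. The annotation and strand setting of the counting were not given in the sources used here, so reads from overlapping genes on opposite strands may not have been told apart.

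Whole reads were recovered for 100% of the 144353 values above 0 (within 0.001 of a whole read), with size factors of 0.889 to 1.09. Samples were grouped by genotype as labelled, and log2(normalized count + 1) was tested in R 4.3.3 by limma 3.58.1 (lmFit, eBayes with trend, two-sided, no covariate, Benjamini-Hochberg adjustment) over 13629 genes with a mean of at least 10. The procedure was tested on simulated data. FPKM, gene positions and shared 75-base stretches used GENCODE M21, which is on the build of mm10 and held 18629 of the 18635 genes. Promoters came from RefSeq on GRCm38.p6, and motifs in the proteins were not analysed here. Python 3.11.15, numpy 2.4.6 and pandas 2.3.3 were used.

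The receptor genes and the lists were chosen with earlier results of these data known. Genes named from each of the 5 lists were the 6 largest absolute log2 fold changes with an adjusted p under 0.05, groups that do not overlap and a mean of at least 50, and the 2 most abundant, together with the neighbours of *Cd33* that passed and the 3 genes most like *Cd33*. Other genes (*Cd22*, *Ptpn11*, *Inpp5d*, *Lyn*, *Etfb*, *Cd300c2* and *Rab37*) were named for their role or position after their values were seen, and 2 genes that the rule selects are not reported here. Alternatives were another pseudocount, filter, scaling or variance model, a replicate block, each sample left out, and edgeR 4.0.16 and DESeq2 1.42.0 on the recovered reads. Counting depth limits the genes with few reads, and their values cover counting error and replicate spread only as far as 4 samples show it.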

Additional observations from a re-analysis of the deposited data

Results flagged for a closer look

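In a group of 4 samples, a sample whose gap to its nearest neighbour exceeded the 95% critical value of Dixon's test, as a share of the range of the group, was taken as standing apart. Of 100 groups examined, 3 had such a sample, and chance gives about 1 in 20. None of them belonged to the 10 receptor genes.

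*Cd200r1*, the receptor for CD200, had its lowest Cre sample at a normalized count of 4524, apart from the other 3 at 4741 to 4765, with a gap of 0.904 of the range. *Tyrobp*, the gene of DAP12, had its lowest control sample at 28306, apart from the others at 29455 to 29672, with a gap of 0.841 of the range. *Ptpn6*, the gene of SHP-1, had its lowest Cre sample at 17505, apart from the others at 17856 to 17923, with a gap of 0.841 of the range. The single low samples did not reach the other genotype in any of these 3 genes, and the cause was not tested.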

How the results depend on the processing

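*Pirb* and *Cd300a* kept their direction and stayed past the threshold under all 18 alternatives, with log2 fold changes of 0.12 to 0.19 and -0.40 to -0.36, and *Cd33* ranged from 0.98 to 1.03. The number of genes past the threshold ranged from 4930 to 5944 over the alternatives, against 5594. Among activating relatives, 7 genes passed with eBayes without trend (6 higher, 1 lower) against 11. Among the neighbours of *Cd33*, 2 passed under quantile normalization, and 1 to 2 with a sample left out. Scaling to total reads moved the median log2 fold change of all genes to 0.01.

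Log2 fold changes near 0 changed sign. Under quantile normalization that of *Siglecf* was -0.0022, of *Sirpa* 0.018 and of *Fcer1g* 0.0573 (limma adjusted p = 0.0321), and with total read scaling that of *Fcer1g* was 0.0047. Leaving out 1 sample at a time gave -0.0221 to 0.0349 for *Siglece*, -0.0658 to 0.1393 for *Siglecf*, -0.0167 to 0.0507 for *Cd300lf*, -0.0299 to 0.005 for *Fcer1g* and -0.014 to 0.0142 for *Fyb*. *B2m* passed under DESeq2 (adjusted p = 0.0461), quantile normalization (limma adjusted p = 1.93e-09) and total read scaling (limma adjusted p = 0.0313), *Neu1* under total read scaling (limma adjusted p = 0.036), and *Cd5* did not pass with eBayes without trend (limma adjusted p = 0.0636). The cause was not tested.

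The replicate numbers are shared by the groups, but same-numbered samples correlated in their deviations by 0.0628, 0.0977, 0.126 and 0.0776, and control replicate 1 correlated best with Cre replicate 4, at 0.135, so the numbers were not taken as pairs. Across the groups, replicates 1 and 4 correlated with each other by 0.0628 to 0.1345, replicates 2 and 3 by 0.0484 to 0.1263, and samples of one set with those of the other by -0.1237 to -0.0356, and the second principal component (13.2% of the variance) separated the sets in both genotypes. The labels name no batch for this. A block of numbers 1 and 4 against 2 and 3, chosen after seeing these values, left 5642 genes past the threshold and changed no direction or call of the receptor genes. With the replicate number as a block, 5597 genes passed, among them 2 of the receptor genes, 12 other inhibitory receptors, 11 activating relatives, 16 signalling genes, 9 sialic acid genes, 11 ligands and 1 neighbour of *Cd33*. The depth limits *Siglecf* and *Siglecg*, with 28 to 48 and 0 to 6 reads per sample.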
